A study of Mus musculus with 11 samples.

Results

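Glucose and lactate carriers and the enzymes of glycolysis, the pentose phosphate pathway, pyruvate entry and the tricarboxylic acid (TCA) cycle were described in mouse splenic CD4 T cells of innate memory phenotype (IMP) and of naive phenotype. The 38 genes were chosen by name as core members of these pathways. Of these, 36 had a row of their own among 20402 genes tested. The rows that hold Hk1 and G6pdx also name other genes (7 and 2 gene symbols), so these genes are given from their own probe sets in the probe set table that was deposited beside the gene table.

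Glycolysis splits glucose into pyruvate in the cytosol, and lactate dehydrogenase can turn pyruvate into lactate, which leaves the cell through monocarboxylate carriers. The pyruvate dehydrogenase complex feeds pyruvate into the TCA cycle of the mitochondrion, and pyruvate dehydrogenase kinases switch that complex off. The pentose phosphate pathway branches from glucose 6-phosphate and yields NADPH and ribose. T cells raise glucose uptake and glycolysis when antigen activates them, whereas naive T cells draw mostly on mitochondrial respiration.

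Total RNA was measured on 11 arrays, each described by its label as a biological replicate. WT IMP (2 arrays) and WT naive (3 arrays) cells came from unmanipulated wild-type female C57BL/6 mice aged 8 weeks. WM IMP cells (3 arrays) were CD45.1+ cells from chimeras in which female CD45.1+ wild-type marrow had gone into lethally irradiated female CD45.2+ MHCII-/- hosts. MW naive cells (3 arrays) were CD45.2+ cells from the opposite chimeras, with female CD45.2+ MHCII-/- marrow in lethally irradiated female wild-type hosts. Chimeras were used 8 weeks after the transfer and their age was not given. For the MW chimeras the labels name the host allele as CD45.1 in some fields and as CD45.2 in another. With the second reading the CD45.2 gate would not separate donor from host cells. All cells were TCRβ+ CD4+, with gates that took IMP cells as CD44hi and naive cells as CD44lo at a stated purity of 92% to 99%, and 30 ng of RNA was labelled. WM IMP and MW naive cells therefore differ in marrow genotype, host genotype and CD45 gate as well as in phenotype.

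Values are on a log2 scale whose 0 is, gene by gene, the average of WT naive cells (3 arrays). Brightness was not among the deposited values. How strongly a gene was expressed, or whether it stood above background, is therefore unknown, and no gene's level can be set against that of another. The number of arrays limits the precision. A gene was called at a limma adjusted p under 0.05, with Benjamini-Hochberg adjustment over all 20402 genes, and ± after a difference is its standard error (SE) from limma.

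The promoters of the called members are shown because the hypoxia-inducible factors, which drive many glycolytic genes, bind elements with the core ACGTG. RefSeq windows (build GRCm38.p6) of 300 bases, from 250 before to 50 after an annotated start, were found for 36 of the 38 members. Each is printed 5′ to 3′ on the strand of the gene, with ACGTG or its reverse complement CACGT in capitals. Hk2, which encodes an inducible hexokinase, has its window at chr6:82774405-82774704 (minus strand), and Slc16a3, which encodes a lactate exporter, at chr11:120948817-120949116 (plus strand). Tpi1, which encodes triosephosphate isomerase, lies at chr6:124814109-124814408 (minus strand). Pdk1, which encodes a pyruvate dehydrogenase kinase, lies at chr2:71872974-71873273 (plus strand, the first of 2 windows). Idh2, which encodes the mitochondrial NADP-dependent isocitrate dehydrogenase, lies at chr7:80115301-80115600 (minus strand).
Hk2: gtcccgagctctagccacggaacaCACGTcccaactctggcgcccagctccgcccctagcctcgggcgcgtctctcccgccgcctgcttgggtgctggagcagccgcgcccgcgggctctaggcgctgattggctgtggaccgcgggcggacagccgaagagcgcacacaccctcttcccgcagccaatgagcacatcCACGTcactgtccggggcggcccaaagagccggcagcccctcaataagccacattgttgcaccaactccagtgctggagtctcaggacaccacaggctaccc
Slc16a3: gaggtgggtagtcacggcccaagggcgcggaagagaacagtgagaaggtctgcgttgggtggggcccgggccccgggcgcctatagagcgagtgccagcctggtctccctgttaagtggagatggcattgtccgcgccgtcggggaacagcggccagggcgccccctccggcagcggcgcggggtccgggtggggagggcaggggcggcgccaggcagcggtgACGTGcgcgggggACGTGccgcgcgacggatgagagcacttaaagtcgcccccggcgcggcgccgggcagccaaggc
Tpi1: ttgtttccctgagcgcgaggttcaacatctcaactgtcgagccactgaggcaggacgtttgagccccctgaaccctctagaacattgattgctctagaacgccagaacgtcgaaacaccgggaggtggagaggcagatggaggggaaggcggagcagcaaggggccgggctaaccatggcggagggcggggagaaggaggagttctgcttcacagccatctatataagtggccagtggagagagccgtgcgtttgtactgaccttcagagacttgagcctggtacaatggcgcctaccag
Pdk1: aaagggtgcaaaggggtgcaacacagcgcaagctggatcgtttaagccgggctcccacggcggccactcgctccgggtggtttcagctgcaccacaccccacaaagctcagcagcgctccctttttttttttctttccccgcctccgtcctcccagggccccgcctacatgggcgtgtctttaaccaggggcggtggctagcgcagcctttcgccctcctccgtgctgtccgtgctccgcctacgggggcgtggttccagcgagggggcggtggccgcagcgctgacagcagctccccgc
Idh2: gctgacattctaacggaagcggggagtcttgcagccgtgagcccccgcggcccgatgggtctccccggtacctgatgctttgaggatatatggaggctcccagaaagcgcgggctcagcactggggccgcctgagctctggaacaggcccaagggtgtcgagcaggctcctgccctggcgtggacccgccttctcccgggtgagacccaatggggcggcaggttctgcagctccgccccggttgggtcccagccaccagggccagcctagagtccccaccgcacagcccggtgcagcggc

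Hk2 and Slc16a3 each hold 2 matches, and the windows of Tpi1, Pdk1 and Idh2 hold none. Among the 8 members called in a comparison of IMP with naive cells, 7 had a window, and 3 of these (Hk2, Slc16a3 and Ogdh) held ACGTG on either strand. Ogdh held 3 distinct sites over its 6 windows, which overlap in part, while the window of Ldhb held none. Over all members with a window the motif was present in 17 of 36 (47.2%), against 21.8% of 27025 genes. Members with several annotated starts have more windows in which to match. With the first window of each gene alone the shares were 41.7% of members and 19.7% of genes. The palindrome CACGTG, the E-box bound by MYC and its relatives, contains ACGTG on both strands and was present in 13.9% of members and 8.09% of genes, or in 8.33% and 7.24% with the first window alone. Members and all genes were not matched for base composition, and its part in these shares was not tested. A match describes these letters and is not evidence of binding. Slc2a3 has no entry in the promoter table.

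IMP and naive cells were compared to ask how the memory phenotype differs from the naive one in these pathways. A few genes moved and most did not pass the test. In both pairs of groups the glucose carrier gene Slc2a3 and the isomerase gene Tpi1 rose, and the kinase gene Pdk1 and the dehydrogenase gene Idh2 fell. In WT IMP against WT naive cells 4 of 36 members (11.1%) were called, 2 higher and 2 lower, where 8.21% of all genes were called (5.41% higher and 2.8% lower). In WM IMP against MW naive cells 8 of 36 members (22.2%) were called, 4 higher and 4 lower, where 15.8% of all genes were called (7.06% higher and 8.78% lower). The 4 added in that comparison were Hk2 and Slc16a3, which were higher in WM IMP than in MW naive cells, and Ogdh and Ldhb, which were lower. The count for WT IMP was 2 without WT IMP replicate 1, and the count for WM IMP was 5 without MW naive replicate 1 and 4 without MW naive replicate 2. Calls over all genes in the WT comparison also changed without WT IMP replicate 1. In the chimera comparison they ranged from 2300 to 3325 with 1 array left out, beside 3232 with all arrays. RNA of a sorted population does not tell fewer cells that express a gene from less RNA per cell.

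The median difference of the 36 members was 0.15 for WT IMP against WT naive cells, beside -0.02 for all genes, and 0.06 for WM IMP against MW naive cells, beside -0.05. All 5 IMP arrays lay apart from all 6 naive arrays for 5 of 36 members (13.9%), where 11.3% of all genes were so divided. Slc2a3, Hk2 and Tpi1 lay higher in the IMP arrays, and Pdk1 and Idh2 lay lower. Within each pair of groups the arrays lay apart for 20 of 36 members in WT IMP against WT naive (all genes 40.9%) and for 19 of 36 in WM IMP against MW naive (all genes 29.1%). For 27 of the 32 uncalled members of the WT comparison, and for 24 of 28 in the chimera comparison, the 95% interval of the difference lay within a 2-fold change in either direction. The wider ones were Eno3, Hk2, Pdha1, Pfkfb4 and Pfkl in the WT comparison, and Eno3, Pfkfb4, Pfkl and Slc16a1 in the chimera comparison.

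**Figure D1:**
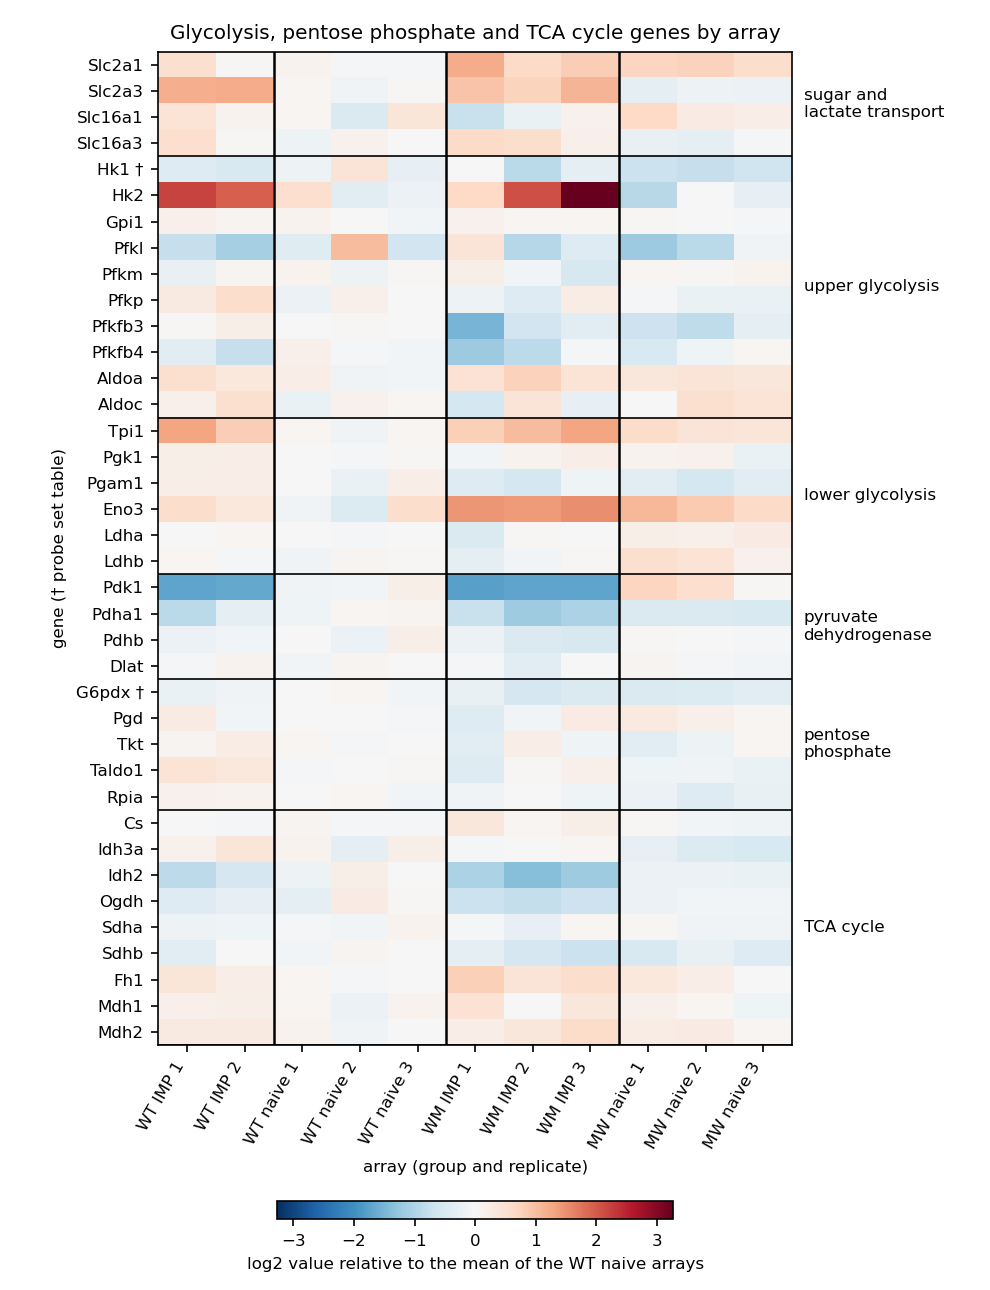
Log2 value of the 38 genes (rows, grouped by role) in each of the 11 arrays (columns) (0 is the WT naive average), in colour. Red is higher and blue is lower than that average; † marks Hk1 and G6pdx, taken from the probe set table. Hk2 is red and Pdk1 blue in the IMP arrays, while Gpi1 is pale throughout.

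Other markers moved with the IMP arrays. The 10 dendritic cell markers tested averaged 2.66 to 2.75 in WT IMP arrays, against -0.13 to 0.22 in WT naive arrays, and 1.69 to 2.62 in WM IMP arrays, against -0.25 to -0.10 in MW naive arrays, with 8 and 6 of 10 genes called higher. The 13 monocyte, macrophage and granulocyte markers averaged 1.36 to 1.67 in WT IMP arrays, against -0.16 to 0.25 in WT naive arrays, and 1.15 to 1.61 in WM IMP arrays, against -0.73 to -0.41 in MW naive arrays, with 7 of 13 called higher in each comparison. B cell markers ranged from 0.93 to 2.88 in WM IMP arrays, against -0.66 to 0.12 in MW naive arrays (5 of 10 called higher), and from -0.18 to 0.54 in WT IMP arrays, against -0.46 to 0.47 in WT naive arrays (1 of 10). Of 6 natural killer cell markers 3 and 4 were called higher, of 6 plasma cell markers 2 and 4, of 2 CD8 markers 0 and 1, and of 5 erythroid markers none in either comparison. Of 14 cell cycle genes, 8 were called higher in each comparison. Some of these genes are also transcribed by activated or proliferating T cells. Without brightness it cannot be said which markers were absent, and the part of these cells in the results below was not tested. The T cell gene Cd3e differed by -0.12 ± 0.13 in WT IMP against WT naive cells (adjusted p = 0.82 by limma) and by 0.11 ± 0.12 in WM IMP against MW naive cells (adjusted p = 0.589). Of the 8 T cell markers tested, Lck was called lower in WM IMP against MW naive cells (-0.50 ± 0.14, adjusted p = 0.0387), and Cd5 in MW naive against WT naive cells (-0.96 ± 0.21, adjusted p = 0.038). Cd4, a marker of the sort, stood at -1.14 and -1.01 in WT IMP arrays, against -0.21, 1.09 and -0.88 in WT naive arrays, and at -0.22, -1.28 and -0.50 in WM IMP arrays, against -1.88, -1.61 and -0.71 in MW naive arrays. Its arrays varied widely within groups, and its differences of -1.08 ± 0.52 and 0.73 ± 0.46 were not called (adjusted p = 0.309 and 0.344 by limma). Cd44, also used in the sort, was 2.72 higher in WT IMP and 2.81 higher in WM IMP.

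Of the 4 carriers, Slc2a3 rose in both IMP groups and Slc16a3 in WM IMP. Slc2a3, which encodes a high-affinity glucose carrier of lymphocytes and neurons, stood at 1.19 and 1.22 in WT IMP arrays, against 0.07, -0.11 and 0.04 in WT naive arrays. It stood at 0.94, 0.73 and 1.10 in WM IMP arrays, against -0.31, -0.17 and -0.19 in MW naive arrays. Every IMP array was above every naive array, and the replicates of a group lay close together. The difference was 1.21 ± 0.14 in WT IMP (2.31-fold, adjusted p = 0.000215 by limma) and 1.15 ± 0.13 in WM IMP (2.21-fold, adjusted p = 8.04e-05). Of its 4 probe sets, 2 carried the difference (1.18 and 1.18 in WT IMP, 0.97 and 1.37 in WM IMP), while the other 2 were at -0.31 and -0.09 in WT IMP and at 0.12 and 0.02 in WM IMP. The names of the probe sets that differed bear the maker's suffix for probes shared with other transcripts, and the part of such transcripts was not tested. In the probe set table, where a gene is the mean of its probe sets, it was 0.49 in WT IMP (adjusted p = 0.0395) and 0.62 in WM IMP (adjusted p = 0.00404).

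Slc2a1, which encodes the glucose carrier induced in activated T cells, did not pass the test between IMP and naive cells. The difference was 0.28 ± 0.19 in WT IMP (95% interval -0.15 to 0.71) and 0.20 ± 0.17 in WM IMP (-0.19 to 0.58). The carrier pair thus gave a called increase for Slc2a3 and none for Slc2a1, and the difference between these genes was not tested.

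Slc16a3, the lactate exporter whose promoter is printed above, stood at 0.62, 0.59 and 0.15 in WM IMP arrays, against -0.24, -0.33 and -0.06 in MW naive arrays. It stood at 0.55 and 0.04 in WT IMP arrays, against -0.16, 0.14 and 0.01 in WT naive arrays. The groups did not overlap in the chimeras and overlapped in the WT comparison, where 1 of the WT IMP arrays was near 0. The increase was 0.67 ± 0.18 in WM IMP (adjusted p = 0.0246 by limma), and the WT difference was 0.30 ± 0.20 (adjusted p = 0.534). The call was lost without MW naive replicate 1 or 2 or without WM IMP replicate 1 or 2 (adjusted p of 0.0611 to 0.0893). Slc16a1, which encodes a carrier that moves lactate in either direction, was at 0.29 ± 0.29 in WT IMP and at -0.65 ± 0.26 in WM IMP (adjusted p = 0.121), and its 2 probe sets pointed in opposite directions in the chimeras.

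In upper glycolysis, from glucose to the triose phosphates, 1 of 9 tested genes was called. Hk2, which encodes the hexokinase that T cells induce on activation, stood at 2.20 and 1.96 in WT IMP arrays, against 0.55, -0.35 and -0.20 in WT naive arrays. It stood at 0.66, 2.10 and 3.27 in WM IMP arrays, against -0.90, -0.00 and -0.27 in MW naive arrays. All IMP arrays lay above all naive arrays, but WM IMP replicate 1 was close above the highest WT naive array. The increase in WM IMP was 2.40 ± 0.52 (5.28-fold, 95% interval 1.26 to 3.54, adjusted p = 0.00877 by limma), the largest rise among the members tested. In WT IMP the difference was 2.08 ± 0.58 (4.23-fold, 95% interval 0.80 to 3.36) and narrowly missed the threshold (adjusted p = 0.0517). It passed the threshold without WM IMP replicate 1 (adjusted p = 0.00411) and without WM IMP replicate 3 (adjusted p = 0.0113). The scatter of the WM IMP arrays enters that test, since the 4 groups share an estimate of the spread. Hk2 had the widest spread within groups of the 36 members, with a pooled SD of 0.79 beside a median of 0.18.

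Hk1, which encodes the constitutive hexokinase, was at -0.46 ± 0.25 in WT IMP (adjusted p = 0.423 in the probe set table) and at 0.30 ± 0.23 in WM IMP (adjusted p = 0.455), and its 2 probe sets disagreed in each comparison. The isomerase gene Gpi1 differed by 0.12 ± 0.12 in WT IMP and by 0.08 ± 0.11 in WM IMP.

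None of the 3 subunits of phosphofructokinase, the committed step of glycolysis, was called, and differences between the subunits were not tested. In WT IMP, Pfkl was at -0.92 ± 0.50, Pfkm at -0.08 ± 0.20 and Pfkp at 0.44 ± 0.19. In WM IMP, Pfkl was at 0.41 ± 0.45, Pfkm at -0.21 ± 0.18 and Pfkp at 0.06 ± 0.17. Pfkl varied widely within groups, with WT naive arrays between -0.64 and 1.02. Its 3 probe sets were at 0.59, 0.90 and -1.17 in WM IMP, and in the probe set table Pfkl was at 0.10 there. The 3 probe sets for Pfkp were at 0.45, -0.14 and -0.33 in WT IMP, and in the probe set table Pfkp was at -0.01 there. Pfkfb3 and Pfkfb4, which encode the bifunctional enzymes that make and degrade the main activator of phosphofructokinase, were not called either. Pfkfb3 was at 0.11 ± 0.28 in WT IMP and -0.23 ± 0.25 in WM IMP. Pfkfb4 was at -0.56 ± 0.29 in WT IMP and -0.51 ± 0.26 in WM IMP (adjusted p of 0.362 and 0.225 by limma). The aldolase gene Aldoa lay higher in every IMP array than in the naive arrays it was compared with, at 0.43 ± 0.15 in WT IMP (adjusted p = 0.125) and 0.17 ± 0.13 in WM IMP (adjusted p = 0.467). In the chimeras 3 of its 6 probe sets were below 0 and 3 above. In the probe set table Aldoa was at 0.03 in WM IMP, with overlapping arrays. Its paralogue Aldoc was at 0.35 ± 0.27 in WT IMP and -0.45 ± 0.24 in WM IMP.

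**Figure D2:**
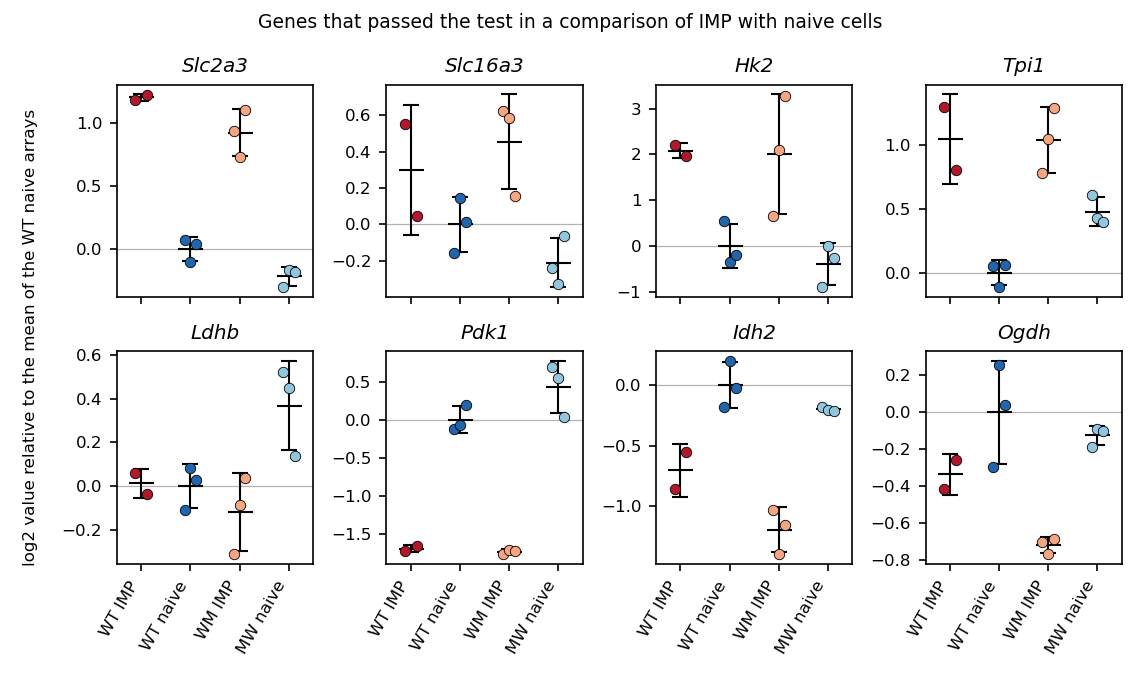
Log2 value with the WT naive average at 0 (vertical axis) for the 8 called members in WT IMP, WT naive, WM IMP and MW naive arrays. Points are arrays and bars are the mean ± SD of a group (n = 2 for WT IMP and 3 for the others). All 5 IMP arrays lie above the 6 naive arrays for Slc2a3, Hk2 and Tpi1 and below them for Pdk1 and Idh2.

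In lower glycolysis, Tpi1 was called in both comparisons and Ldhb in the chimeras, out of 6 genes. Tpi1 stood at 1.30 and 0.80 in WT IMP arrays, against 0.06, -0.11 and 0.06 in WT naive arrays. It stood at 0.78, 1.05 and 1.29 in WM IMP arrays, against 0.61, 0.43 and 0.40 in MW naive arrays. The IMP groups were alike, and the MW naive arrays lay above the WT naive arrays. The increase was 1.05 ± 0.19 in WT IMP (2.07-fold, adjusted p = 0.00435 by limma) and 0.56 ± 0.17 in WM IMP (1.48-fold, adjusted p = 0.0415), and all 3 probe sets were higher in both. In WT IMP the call was lost without WT IMP replicate 1 (0.80, adjusted p = 0.0824). In WM IMP it was lost under 15 of 26 alternatives, among them the omission of any WT naive or MW naive array (adjusted p of 0.0535 to 0.119) and of WM IMP replicate 2 or 3 (0.0794 and 0.127).

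Ldhb encodes the lactate dehydrogenase subunit of tissues that burn lactate, and Ldha the subunit of tissues that make it. Ldhb stood at -0.31, -0.09 and 0.04 in WM IMP arrays, against 0.52, 0.45 and 0.14 in MW naive arrays. In WT IMP it stood at 0.06 and -0.03, against -0.11, 0.08 and 0.03 in WT naive arrays. Thus the chimera groups were apart and the WT groups overlapped. The decrease in WM IMP was -0.49 ± 0.14 (1.40-fold lower, adjusted p = 0.038 by limma), and it kept its call under 9 of 26 alternatives. The 4 probe sets were all lower in WM IMP than in MW naive cells (-0.75 to -0.47), but for MW naive against WT naive cells they ranged from -0.02 to 0.73. Ldha was not called, at 0.02 ± 0.16 in WT IMP (95% interval -0.33 to 0.37) and -0.35 ± 0.14 in WM IMP (-0.67 to -0.04, adjusted p = 0.128).

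The other genes of lower glycolysis stayed below the threshold. The phosphoglycerate kinase gene Pgk1 differed by 0.21 ± 0.15 in WT IMP and 0.06 ± 0.13 in WM IMP, and the mutase gene Pgam1 by 0.21 ± 0.17 and 0.04 ± 0.15. Eno3, which encodes the muscle enolase, was at 0.47 ± 0.25 in WT IMP and 0.60 ± 0.23 in WM IMP (adjusted p = 0.105).

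Pdk1 had the lowest adjusted p of the members. This is the pyruvate dehydrogenase kinase and not the phosphoinositide-dependent kinase with the same abbreviation. It stood at -1.73 and -1.66 in WT IMP arrays, against -0.12, -0.08 and 0.20 in WT naive arrays. It stood at -1.77, -1.71 and -1.73 in WM IMP arrays, against 0.70, 0.54 and 0.04 in MW naive arrays. The 5 IMP arrays lay close together, between -1.77 and -1.66, far below all naive arrays. Pdk1 fell by 1.70 ± 0.19 in WT IMP (3.24-fold lower, adjusted p = 0.000148 by limma) and by 2.16 ± 0.17 in WM IMP (4.48-fold lower, adjusted p = 4.66e-06). All 4 probe sets fell below naive in each comparison, with differences of -2.42 to -1.20 in WT IMP and -2.59 to -2.06 in WM IMP. Between MW naive and WT naive cells the probe sets disagreed, from -0.98 to 0.88.

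The subunits of the complex that Pdk1 inactivates did not pass the test. Pdha1, which encodes the catalytic alpha subunit that the kinase phosphorylates, stood at -0.88 and -0.32 in WT IMP arrays, against -0.15, 0.07 and 0.09 in WT naive arrays. It stood at -0.72, -1.16 and -1.02 in WM IMP arrays, against -0.46, -0.46 and -0.50 in MW naive arrays. The groups did not overlap in either pair. The difference was -0.60 ± 0.19 in WT IMP (adjusted p = 0.0813 by limma) and -0.50 ± 0.17 in WM IMP (adjusted p = 0.0686). In the probe set table both passed (-0.60, adjusted p = 0.0339, and -0.60, adjusted p = 0.0132). Pdhb, which encodes the beta subunit, was at -0.14 ± 0.15 in WT IMP and -0.40 ± 0.14 in WM IMP (adjusted p = 0.0745). Dlat, which encodes the core acetyltransferase, was at 0.04 ± 0.14 and -0.12 ± 0.13.

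None of the 4 tested pentose phosphate genes was called. Taldo1, which encodes transaldolase, was at 0.39 ± 0.17 in WT IMP (adjusted p = 0.237 by limma) and 0.07 ± 0.15 in WM IMP. Tkt (transketolase) was at 0.16 ± 0.18 and 0.06 ± 0.16, Rpia (ribose phosphate isomerase) at 0.13 ± 0.13 and 0.20 ± 0.11, and Pgd (phosphogluconate dehydrogenase) at 0.09 ± 0.19 and -0.26 ± 0.17. G6pdx, which encodes the first enzyme of the pathway, was at -0.17 ± 0.13 in WT IMP and -0.00 ± 0.12 in WM IMP in the probe set table. The 95% intervals of the 4 tested genes lay within a 2-fold change in both comparisons.

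Of 9 TCA cycle genes, Idh2 was called in both comparisons and Ogdh in the chimeras, all lower. Idh2 stood at -0.86 and -0.55 in WT IMP arrays, against -0.18, 0.20 and -0.02 in WT naive arrays. It stood at -1.04, -1.40 and -1.16 in WM IMP arrays, against -0.18, -0.20 and -0.22 in MW naive arrays. Every IMP array was below every naive array. The decrease was -0.71 ± 0.16 in WT IMP (1.63-fold lower, adjusted p = 0.0209 by limma) and -0.998 ± 0.15 in WM IMP (adjusted p = 0.000688). The WT call was lost without WT naive replicate 2 or 3 (adjusted p = 0.0753 and 0.0626) and without WT IMP replicate 1 (adjusted p = 0.254). It was also lost with the replicate number as a block (adjusted p = 0.0593). The 2 probe sets for Idh2 were at -0.78 and -0.16 in WT IMP and at -1.28 and -0.08 in WM IMP.

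Ogdh encodes the substrate-binding component of the oxoglutarate dehydrogenase complex. It stood at -0.70, -0.77 and -0.69 in WM IMP arrays, against -0.18, -0.09 and -0.10 in MW naive arrays. In WT IMP it stood at -0.41 and -0.26, against -0.30, 0.26 and 0.04 in WT naive arrays. The WM IMP arrays were tightly grouped below the MW naive arrays, while the WT groups overlapped. The decrease in WM IMP was -0.59 ± 0.14 (1.51-fold lower, adjusted p = 0.0156 by limma), against -0.33 ± 0.16 in WT IMP (adjusted p = 0.304). The call was lost under 6 of 26 alternatives, and over the 26 the difference ranged from -0.69 to -0.31. Without MW naive replicate 2 its adjusted p was 0.0546.

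The remaining TCA cycle genes gave no call. Fh1 (fumarase) lay above naive without overlap in both pairs, at 0.30 ± 0.15 in WT IMP and 0.40 ± 0.14 in WM IMP (adjusted p = 0.341 and 0.0733 by limma). Idh3a, a subunit of the NAD-dependent isocitrate dehydrogenase, was at 0.27 ± 0.17 and 0.42 ± 0.15 (adjusted p = 0.498 and 0.0917), and its 4 probe sets ranged from 0.11 to 1.56 in WT IMP. Citrate synthase (Cs) was at -0.01 ± 0.13 and 0.27 ± 0.12. The succinate dehydrogenase genes were at -0.16 ± 0.14 and -0.02 ± 0.12 for Sdha and at -0.18 ± 0.16 and -0.13 ± 0.15 for Sdhb. The malate dehydrogenase genes were at 0.17 ± 0.17 and 0.24 ± 0.16 for the cytosolic Mdh1 and at 0.30 ± 0.15 and 0.19 ± 0.13 for the mitochondrial Mdh2. The first value of each pair is WT IMP against WT naive and the second WM IMP against MW naive.

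**Figure D3:**
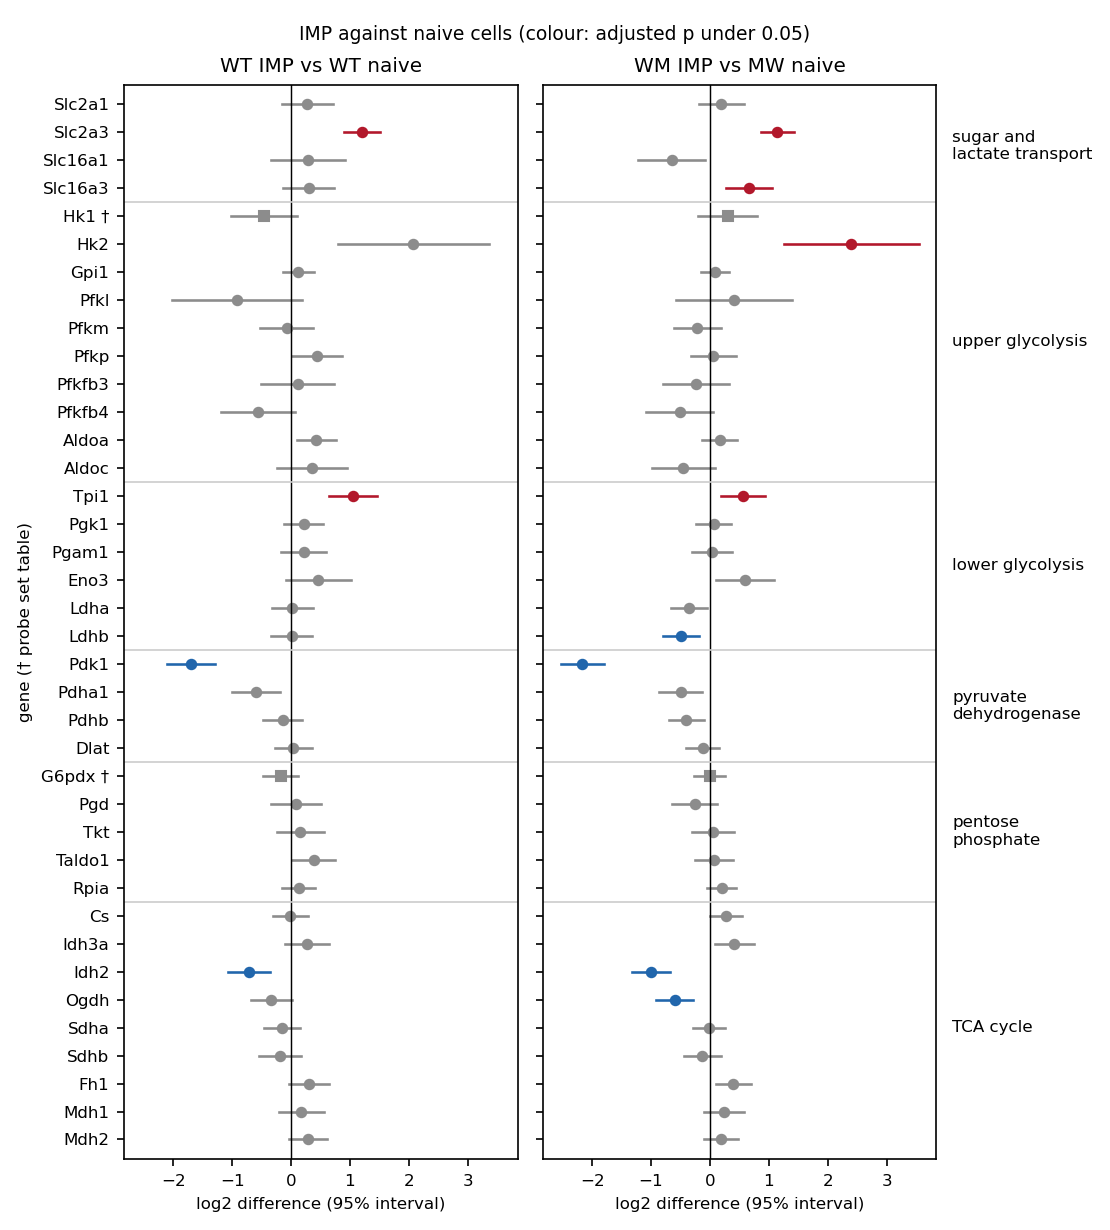
Log2 difference (horizontal axis) with its 95% interval for each gene, grouped by role, in WT IMP against WT naive (left) and WM IMP against MW naive (right). Filled colour marks an adjusted p under 0.05, and squares with † are from the probe set table. Pdk1 at -1.70 and -2.16 and Hk2 at 2.08 and 2.40 lie farthest from 0, and the pentose phosphate genes lie near it.

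Chimeras were compared with unmanipulated mice to ask whether cells of a phenotype differ by the setting they arose in. No member was called. In WM IMP against WT IMP cells 0 of 36 members passed limma's adjusted threshold, where 1.8% of all genes did (0.721% higher and 1.08% lower), and 8 members had an unadjusted p under 0.05 (2 higher and 6 lower). In MW naive against WT naive cells 0 of 36 passed, where 3.08% of all genes did (1.28% higher and 1.79% lower), and 12 had an unadjusted p under 0.05 (6 in each direction). At an unadjusted p under 0.05 the shares over all genes were 16.3% and 16.55%. Arrays lay apart without overlap for 14 of 36 members in IMP cells (all genes 30.9%) and for 15 of 36 in naive cells (all genes 26.2%). The member medians were -0.16 for IMP cells and -0.04 for naive cells, beside -0.04 and 0.00 for all genes. For 29 of 36 members in IMP cells and 31 of 36 in naive cells the 95% interval lay within a 2-fold change. Without WT naive replicate 3 the member called in each comparison was Eno3. Without MW naive replicate 3 Pdk1 was called in naive cells, and without WM IMP replicate 1 the naive comparison called Slc2a1 and Pfkfb3.

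Over all 6 chimera arrays and 5 arrays of unmanipulated mice, 3 of 36 members (8.33%) lay apart without overlap, where 3.46% of all genes did. Slc2a1 stood at 1.21, 0.62 and 0.79 in WM IMP arrays and 0.71, 0.74 and 0.59 in MW naive arrays, against 0.52 and 0.04 in WT IMP and 0.13, -0.07 and -0.05 in WT naive arrays. Eno3 stood at 1.46, 1.39 and 1.51 in WM IMP arrays and 1.07, 0.86 and 0.63 in MW naive arrays, against 0.58 and 0.35 in WT IMP and -0.12, -0.46 and 0.58 in WT naive arrays. Pfkfb3 stood at -1.53, -0.63 and -0.38 in WM IMP arrays and -0.69, -0.84 and -0.31 in MW naive arrays, against 0.05 and 0.18 in WT IMP and -0.02, 0.05 and -0.02 in WT naive arrays. Slc2a1 and Eno3 lay higher in every chimera array, with a narrow gap to the highest array of unmanipulated mice, and Pfkfb3 lay lower. For Slc2a1 the difference was 0.60 ± 0.19 in WM IMP against WT IMP (adjusted p = 0.153 by limma) and 0.68 ± 0.17 in MW naive against WT naive (adjusted p = 0.0615). For Eno3 it was 0.99 ± 0.25 (adjusted p = 0.076) and 0.85 ± 0.23 (adjusted p = 0.0698), and for Pfkfb3 -0.96 ± 0.28 (adjusted p = 0.116) and -0.61 ± 0.25 (adjusted p = 0.249). These 3 genes were picked out by their lack of overlap. In the probe set table Slc2a1 was at 0.18 in WM IMP against WT IMP, with overlapping arrays, and 1 of its 3 probe sets was at -0.55. Eno3 overlapped there between MW naive and WT naive arrays (0.77). Of the 2 probe sets for Pfkfb3, the first was at -1.21 in WM IMP against WT IMP and -0.80 in MW naive against WT naive, and the other at 0.01 and 0.11, so that the gene was at -0.60 and -0.35 in the probe set table. The hybridization controls also set the chimera arrays apart, at 1.62 to 3.17 in WM IMP and 1.01 to 1.44 in MW naive arrays, against 0.45 to 0.47 in WT IMP and -0.46 to 0.56 in WT naive arrays. With these controls as a covariate 0 members were called in WM IMP against WT IMP and 3 in MW naive against WT naive cells (Eno3, Slc16a1 and Pfkl). The naive groups also lay apart in the difference between the 5′ and 3′ probe sets of Gapdh and of actin. For Gapdh it was -4.22 to -1.38 in MW naive arrays, against -0.42 to 0.41 in WT naive arrays. For actin it was -1.33 to -0.82, against -0.23 to 0.35. In IMP cells the ranges overlapped for both, and actin was not used as a covariate. Cell cycle genes averaged 0.50 to 0.74 in WM IMP arrays, against 1.27 to 1.41 in WT IMP arrays, with 3 of 14 called lower, and their part was not tested.

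Members that had moved between IMP and naive cells, and Pgam1, gave no call in the same comparisons. Slc2a3 was at -0.28 ± 0.14 in WM IMP against WT IMP and -0.22 ± 0.13 in MW naive against WT naive cells. Tpi1 was at -0.01 ± 0.19 (95% interval -0.42 to 0.40) and 0.48 ± 0.17 (0.11 to 0.84, adjusted p = 0.166 by limma). Pgam1 was at -0.59 ± 0.17 and -0.42 ± 0.15 (adjusted p = 0.11 and 0.186 by limma). Hk2 was at -0.07 ± 0.58 and -0.39 ± 0.52, with 95% intervals (-1.35 to 1.21 and -1.53 to 0.75) that leave a 2-fold change in either direction possible. Pdk1 was at -0.04 ± 0.19 (95% interval -0.45 to 0.37) in IMP cells and 0.43 ± 0.17 (0.06 to 0.79, adjusted p = 0.219) in naive cells. Idh2 was at -0.49 ± 0.16 and -0.20 ± 0.15. Ldhb was at -0.13 ± 0.16 in IMP cells and 0.37 ± 0.14 in naive cells (adjusted p = 0.728 and 0.213 by limma). In the probe set table Ldhb was at -0.30 in IMP cells, where the WM IMP arrays lay below the WT IMP arrays. It was at 0.26 in naive cells there, with overlapping arrays. Which of the 2 differences of Ldhb was larger thus depended on the table and was not tested. Ogdh was at -0.38 ± 0.16 and -0.12 ± 0.14, and Slc16a3 at 0.16 ± 0.20 and -0.21 ± 0.18.

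**Figure D4:**
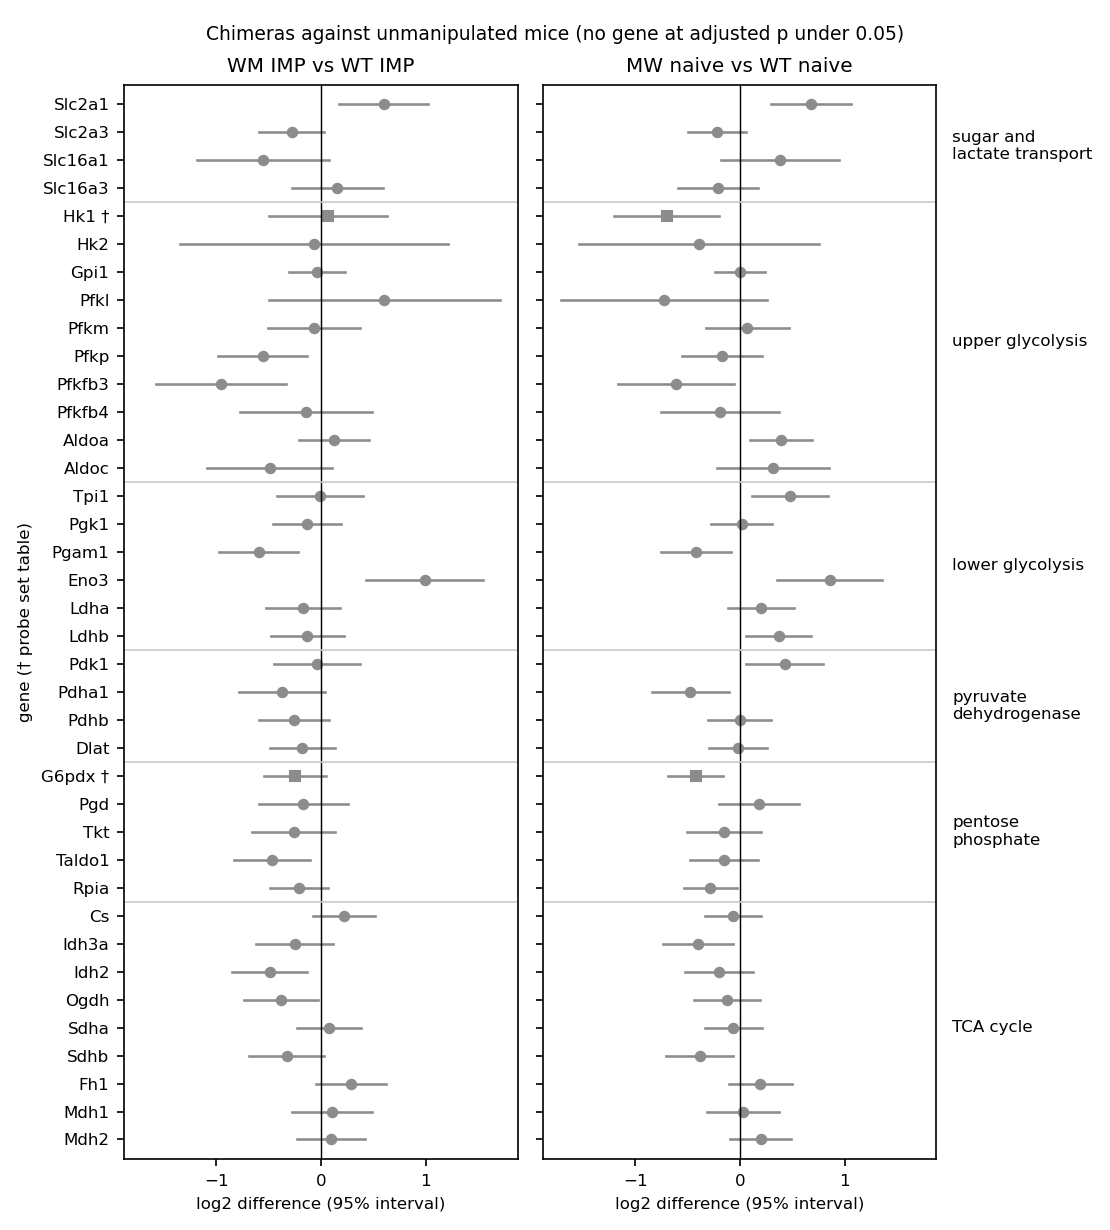
Log2 difference (horizontal axis) with its 95% interval for each gene in WM IMP against WT IMP (left) and MW naive against WT naive (right). Grey marks an adjusted p of 0.05 or more, which holds for all genes shown, and squares with † are from the probe set table. Slc2a1 and Eno3 lie above 0 and Pfkfb3 lies below 0 in both panels.

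Whether the difference between IMP and naive cells itself differed between chimeras and unmanipulated mice was tested as an interaction. No member passed limma's adjusted threshold, where 0.118% of all genes did (0.0735% positive and 0.0441% negative). An unadjusted p under 0.05 was found for 3 of 36 members (8.33%), all negative (Aldoc, Ldhb and Slc16a1). The share over all genes was 8.21% (639 positive and 1036 negative), so the member count was near that of all genes. Slc16a1 was at -0.94 ± 0.39 (adjusted p = 0.546), Aldoc at -0.81 ± 0.36 (adjusted p = 0.601) and Ldhb at -0.50 ± 0.21 (adjusted p = 0.562). Pfkl had the largest estimate, at 1.33 ± 0.67 (95% interval -0.15 to 2.81). Of its 3 probe sets, 2 were higher and 1 lower in WM IMP than in MW naive cells. The calls that Slc16a3, Ogdh and Ldhb had only in the chimeras are thus not shown to be particular to them. For Slc16a3 the interaction was 0.37 ± 0.26, for Ogdh -0.26 ± 0.21 and for Hk2 0.32 ± 0.78. The 2 comparisons of IMP with naive cells share no arrays, and of 20402 genes 4.18% were called higher in both and 1.99% lower in both.

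Among 67 of 72 other genes of the same pathways that could be tested, 7 (10.45%) were called in WT IMP against WT naive cells, 5 higher and 2 lower, where 8.21% of all genes were called. Tktl1, which encodes a transketolase-like protein, was at 3.21 ± 0.38, the muscle mutase gene Pgam2 at 2.05 ± 0.40, the sugar carrier gene Slc2a6 at 1.72 ± 0.31 and the monocarboxylate carrier gene Slc16a7 at 1.08 ± 0.19. The genes that fell, Suclg2 (-0.96 ± 0.24) and Suclg1 (-0.61 ± 0.14), encode subunits of succinyl-CoA ligase. In WM IMP against MW naive cells 9 (13.43%) were called, 5 higher and 4 lower, where 15.8% of all genes were called. Tktl1 (2.58 ± 0.34), Pgam2 (1.28 ± 0.36) and Slc2a6 (0.96 ± 0.28) were again higher, with Sdhaf1 (0.71 ± 0.20), an assembly factor of succinate dehydrogenase. Gpd2, which encodes the mitochondrial glycerol phosphate dehydrogenase, fell (-0.87 ± 0.26), as did the pyruvate dehydrogenase phosphatase gene Pdp1 (-0.83 ± 0.17), Pgm2 (-0.66 ± 0.15) and the D-lactate dehydrogenase gene Ldhd (-0.64 ± 0.19). The medians were -0.03 and -0.16. The WT count was 4 without WT naive replicate 3 and 2 without WT IMP replicate 1. The chimera count was 5 without WT naive replicate 1, WT naive replicate 3 or MW naive replicate 3, and 4 without MW naive replicate 1 or 2.

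Tktl1 stood at 3.50 and 2.91 in WT IMP arrays, against -0.03, 0.04 and -0.02 in WT naive arrays. It stood at 1.35, 2.91 and 2.89 in WM IMP arrays, against -0.16, -0.15 and -0.26 in MW naive arrays. The groups were far apart in both pairs, while the members Tkt and Taldo1 of the same branch were not called. Between MW naive and WT naive cells 2 of the 67 (2.99%) were called, where 3.08% of all genes were, namely Suclg2 (-1.33 ± 0.21) and Suclg1 (-0.64 ± 0.12). That count was 1 without WT naive replicate 1 or MW naive replicate 1 and 0 without WT naive replicate 3 or MW naive replicate 2. Between WM IMP and WT IMP cells limma called 0 of the 67, where 1.8% of all genes were called. The number called was 1 without MW naive replicate 1 or WM IMP replicate 1 and 3 without WM IMP replicate 2. An unadjusted p under 0.05 was found for 17 of the 67 (25.37%), 1 higher and 16 lower, where the share over all genes was 16.3%.

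All 27 listed regulators of the pathway were tested. This list, like that of the other pathway genes, was chosen with earlier results of these data known. Its shares beside those of all genes are therefore no test of the pathway. In WT IMP against WT naive cells 4 (14.81%) were called, where 8.21% of all genes were. Egln3, which encodes an oxygen-sensing prolyl hydroxylase that is itself induced by hypoxia-inducible factors, was at 1.69 ± 0.27, and the activation-induced transcription factor gene Irf4 at 1.49 ± 0.30. Epas1, which encodes an alpha subunit of the hypoxia-inducible factors, fell (-1.28 ± 0.23), as did Foxo1, a factor of naive and resting T cells (-1.17 ± 0.13). In WM IMP against MW naive cells 11 (40.74%) were called, 3 higher and 8 lower, where 15.8% of all genes were called (7.06% higher and 8.78% lower). Egln3 (1.62 ± 0.24), Irf4 (1.43 ± 0.27) and Hif1a (0.81 ± 0.23), the best known of those alpha subunits, were higher. Among the lower genes were Epas1 (-1.66 ± 0.21), the inhibitor of the mTOR complex Tsc2 (-1.31 ± 0.23), Myc (-1.24 ± 0.23), a driver of glycolytic genes in activated T cells, and Txnip (-1.13 ± 0.17), which limits glucose uptake. Without WT IMP replicate 1 the WT count was 2, and the chimera count lay between 8 and 12 with any array left out.

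Hif1a stood at 0.52, 0.97 and 0.81 in WM IMP arrays, against 0.21, -0.29 and -0.03 in MW naive arrays. In WT IMP it stood at 0.96 and 0.86, against 0.44, -0.55 and 0.11 in WT naive arrays. IMP arrays were higher without overlap in both pairs, but the WT difference of 0.91 ± 0.26 missed the threshold (adjusted p = 0.0586 by limma). Myc stood at -0.59, -0.92 and -0.36 in WM IMP arrays, against 0.99, 0.78 and 0.08 in MW naive arrays. In WT IMP it stood at -0.53 and -0.44, against 0.10, -0.25 and 0.14 in WT naive arrays, a difference of -0.49 ± 0.26 (adjusted p = 0.379).

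Between MW naive and WT naive cells 5 of 27 regulators (18.52%) were called, where 3.08% of all genes were, with Mlxip (1.69 ± 0.17) and Mtor (0.69 ± 0.13) higher and Max (-1.48 ± 0.35), Irf4 (-1.26 ± 0.27) and Mxd1 (-0.81 ± 0.18) lower. That count was 1 without any WT naive replicate and without MW naive replicate 1 or 2. Between WM IMP and WT IMP cells Tsc2 alone was called, where 1.8% of all genes were (-1.31 ± 0.26, adjusted p = 0.0341 by limma), and no regulator was called without any of WT naive replicates 1 to 3, MW naive replicates 1 and 2 and WT IMP replicates 1 and 2. The count was 3 without WM IMP replicate 2 and 2 without WM IMP replicate 3.

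**Figure D5:**
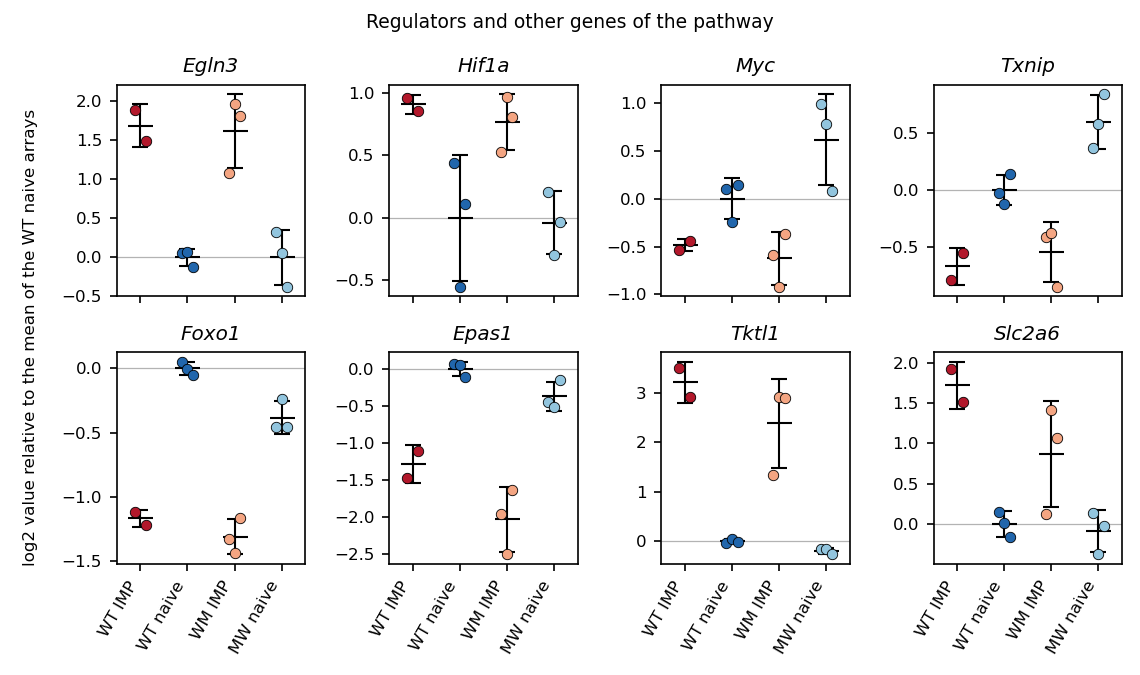
Log2 value with the WT naive average at 0 (vertical axis, a scale of its own in each panel) for 6 regulators and 2 other pathway genes in WT IMP, WT naive, WM IMP and MW naive arrays. Points are arrays and bars are the mean ± SD of a group (n = 2 for WT IMP and 3 for the others). Egln3 and Tktl1 are higher and Epas1 and Foxo1 lower in all 5 IMP arrays than in all 6 naive arrays, while WM IMP replicate 1 of Slc2a6 lies among the naive arrays.

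Control probe sets also differed between arrays. The poly-A controls added at labelling were high in 4 arrays (3.89 to 6.12), 1 of each group, and low in the other 7 (-2.08 to -1.60). With this split as a block the members called were 4 in WT IMP and 9 in WM IMP, and within the 7 low arrays they were 2 and 3. The 4 high arrays hold a single array of each group and allow no test. The hybridization controls averaged 2.29 in WM IMP arrays, against 1.17 in MW naive arrays, and 0.46 in WT IMP arrays, against 0 in WT naive arrays. With them as a covariate the counts were 7 and 5. The difference between the 5′ and 3′ probe sets of Gapdh ranged from -4.23 to -0.27 in WT IMP arrays, against -0.42 to 0.41 in WT naive arrays, and from -2.71 to 0.56 in WM IMP arrays, against -4.22 to -1.38 in MW naive arrays. With it as a covariate the counts were 3 and 8. Slc2a3 and Pdk1 kept their calls under each of these fits. Counts over all genes under these fits are not given here.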

How the data were processed

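Total RNA from sorted cells was hybridized to 11 oligonucleotide arrays with 1 channel. Robust multi-array averaging (RMA) is named for these values, per the submitters' processing notes. The authors deposited log2 values with the average of WT naive cells (3 arrays) set to 0, in a table of 45101 probe sets and a table of 27800 genes that is quantile normalized by its name. No source names the base of the logarithm, and base 2 was assumed because RMA uses it. How the authors joined the probe sets of a gene is not given in the sources used here. Values carry no counts, so depth has no meaning here.

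The gene table was the main one. Rows naming several genes (1712) or none (5633, and 55 controls) were left out, and rows sharing a symbol were averaged, which left 20402 genes. RefSeq (GRCm38.p6) held 17879 of the gene identifiers, and 2055 symbols were updated. Using limma 3.58.1 (R 4.3.3), lmFit and eBayes were run on the 11 arrays with a mean for each of 4 groups and no filter, for 5 comparisons. Tables and figures used Python 3.11.15, pandas 2.3.3, numpy 2.4.6 and matplotlib 3.10.9. The fit was tested on simulated data. A further gene of the sort is not reported here.

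The members and lists were chosen with earlier results of these data known. Members were given with every array where called in a comparison of IMP with naive cells, paralogues were given side by side, and up to 4 called genes in each direction were named from the other lists. Values of Slc2a1, Eno3, Pfkfb3, Pdha1, Hif1a, Myc and Tktl1 in each array were added after they had been seen. Equal replicate numbers did not pair the arrays: the deviations of 15 same-number pairs correlated at -0.287 to 0.175, and those of 30 other pairs at -0.235 to 0.256. Alternatives were the probe set table, each row by itself, centring, quantile normalization, a replicate block, 2 groups alone, array weights, robust eBayes, the control probe sets, other thresholds and each array left out.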

Additional observations from a re-analysis of the deposited data

How the results depend on the processing

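Slc2a3 and Pdk1 kept their direction and their call in both comparisons of IMP with naive cells under each of 26 alternatives. No called member changed direction under these alternatives. Hk2 and Idh2 in WM IMP each kept the call under 24 of 26, Tpi1 in WT IMP under 23, Ogdh in WM IMP under 20, Idh2 in WT IMP under 17, Slc16a3 in WM IMP under 16, Tpi1 in WM IMP under 11 and Ldhb in WM IMP under 9. In WT IMP against WT naive cells the 4 called members became 2 after a further quantile normalization and within the 7 arrays with low poly-A controls, 8 with array weights and 7 with the hybridization controls as a covariate. In WM IMP against MW naive cells the 8 became 2 after a further quantile normalization, 3 within the 7 arrays and at an absolute log2 difference of at least 1, 5 with the 2 groups alone and with the hybridization controls, and 4 at an adjusted p under 0.01. In MW naive against WT naive cells the 0 became 1 after a further quantile normalization, 2 with the 2 groups alone and at an adjusted p under 0.1, 7 with array weights and 3 with the hybridization controls. In WM IMP against WT IMP cells 1 was called at an adjusted p under 0.1. The 7 arrays hold fewer replicates, and the cause of the other changes was not tested. With the replicate number as a block the counts were 3 and 6 for the comparisons of IMP with naive cells and 0 for the others, and the numbers do not pair the arrays. With 1 array left out the member counts ranged from 2 to 6, 4 to 8, 0 to 2, 0 to 1 and 0 to 0 for WT IMP against WT naive, WM IMP against MW naive, MW naive against WT naive, WM IMP against WT IMP and the interaction. Where this left 1 WT IMP array, it was taken to vary like the other groups. Calls over all genes moved as well. In MW naive against WT naive cells they ranged from 124 to 1181 with 1 array left out, beside 628 with all arrays. Counts over all genes under the other alternatives are not given here. The shifts in member counts are thus not shown to be particular to the members. Signal over background is unknown, so dim probe sets could not be set aside.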
